A study of Mus musculus with 8 samples.

Results

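The expression of 10 early response genes, Dusp1, Klf2, Klf4, Klf6, Klf10, Ier2, Ier3, Ier5, Zfp36 and Myc, was followed in quiescent neural stem cells (qNSCs) under lysosomal inhibition. They were chosen by gene symbol, as the probes of the array's value table whose platform symbol is any of these names. This gave 10 probes, 1 for each of the 10 genes, out of 16390 named genes on the array. The qNSCs came from a cultured mouse NSC line, made from the ventral telencephalon of ICR embryos and held for 3 days in medium with BMP, which brings these cells into quiescence. The groups were qNSCs with 20 nM bafilomycin A (BafA), an inhibitor of the proton pump that acidifies lysosomes, for 4 h, control qNSCs without BafA at 4 h, qNSCs with 20 nM BafA for 24 h, and control qNSCs at 24 h. All 4 groups carried BMP and received fresh quiescence medium at time 0, so that any response to the medium change would be shared by the controls. No group was left in its old medium, so such a response was not measured here. RNA of each group was hybridised to 2 single-colour arrays. The labels do not say that the 2 arrays of a group came from separate cultures, so p-values measure only the spread between these arrays, which may be technical.

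Early response genes are switched on within minutes to hours when a growth factor, a stress or a change of serum reaches a cell, without the need for new protein, and most of their mRNAs are short-lived. Their usual course is a brief pulse that feedback then ends. Dusp1 is part of that feedback, since it removes phosphates from MAP kinases, and so is Zfp36, which binds AU-rich stretches of mRNAs and speeds their decay. The Klf genes encode zinc finger factors that bind GC-rich and CACCC sequences, and Myc encodes a factor that pairs with Max on E-boxes and drives growth genes. The exit from quiescence into the cell cycle is a classical setting for these genes.

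The promoters of genes in several of the response classes are shown as context for the searched motifs, because several of these genes were higher together with BafA. RefSeq windows (build GRCm38.p6) were given for 7 of the 10 genes. None was given for Klf10, Ier2 and Myc, so their promoters were not searched. Of the 7 windows 5 are printed here, 5′ to 3′ on the strand of the gene, as the 250 bases before the start. Those of Klf2 and Ier5 were searched but are not printed, so the response class of Ier5, described below, is not shown. Capitals mark a CArG box (bound by serum response factor), the cAMP response element TGACGTCA and its shorter core TGACG, the AP-1 site TGANTCA, the EGR site GCGTGGGCG, the E-box CACGTG and the TATA box TATAAA on either strand. GC boxes, GGGCGG, are left in lower case because every window held at least 1. The windows are chr17:26508473-26508722, minus strand for Dusp1, chr13:5861239-5861488, plus strand for Klf6, chr4:55532476-55532725, minus strand for Klf4, chr17:35821463-35821712, plus strand for Ier3 and chr7:28379229-28379478, minus strand for Zfp36.
Dusp1: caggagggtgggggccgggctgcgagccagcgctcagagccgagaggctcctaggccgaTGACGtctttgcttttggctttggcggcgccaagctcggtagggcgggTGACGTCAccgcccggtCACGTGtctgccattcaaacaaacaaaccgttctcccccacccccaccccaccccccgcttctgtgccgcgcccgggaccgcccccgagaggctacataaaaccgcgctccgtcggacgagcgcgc
Klf6: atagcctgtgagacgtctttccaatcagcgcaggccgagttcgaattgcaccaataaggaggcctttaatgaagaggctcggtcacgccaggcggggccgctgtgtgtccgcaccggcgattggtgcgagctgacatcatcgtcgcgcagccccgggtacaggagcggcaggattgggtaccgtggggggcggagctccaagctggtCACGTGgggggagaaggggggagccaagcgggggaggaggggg
Klf4: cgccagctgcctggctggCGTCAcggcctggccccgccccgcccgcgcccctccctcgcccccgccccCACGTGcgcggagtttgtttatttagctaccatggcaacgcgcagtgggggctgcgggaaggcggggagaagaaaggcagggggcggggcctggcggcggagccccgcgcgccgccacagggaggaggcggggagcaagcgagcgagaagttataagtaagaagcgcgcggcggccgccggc
Ier3: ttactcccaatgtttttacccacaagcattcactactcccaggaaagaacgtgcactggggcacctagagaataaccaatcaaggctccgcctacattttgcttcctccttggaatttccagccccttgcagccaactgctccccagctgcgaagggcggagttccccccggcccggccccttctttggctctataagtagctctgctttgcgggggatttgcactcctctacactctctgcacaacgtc
Zfp36: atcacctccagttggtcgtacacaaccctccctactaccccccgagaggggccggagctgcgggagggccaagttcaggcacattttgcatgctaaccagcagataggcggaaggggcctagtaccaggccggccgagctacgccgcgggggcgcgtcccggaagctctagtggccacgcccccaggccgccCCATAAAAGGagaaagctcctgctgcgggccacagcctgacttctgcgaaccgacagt

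Matches were counted over 300 bases, from 250 before to 50 after the start, in the 7 windows and in all 32851 windows of the table. Dusp1 held a full cAMP response element at bases -143 to -136, a motif that 1.79% of all windows held. The core TGACG, which lies within the full element, was found in Dusp1, Klf2 and Klf4 and in 20.8% of all windows. The E-box was present in Dusp1, Klf6 and Klf4 and in 7.15% of all windows. A CArG box was found in Zfp36 alone of the 7 windows, at bases -58 to -49, against 1.63% of all windows. The GC box was in 7 of 7 windows and in 35.7% of all. None of the 7 windows matched the AP-1 site (7.81% of all windows) or the EGR site (0.612%, a motif that can overlap a GC box). The TATA box as spelled (13.6%) was also in none. Nor was an exact match to the CLEAR element of lysosomal genes, GTCAC followed by GTGAC, which contains the E-box (0.326%). Near matches to it were not counted. In Dusp1 and Klf6 the E-box follows GT, as in that element, but the bases after it differ. A match is a run of letters and not a measured site.

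All 10 probes gave a value above the blank-spot limit on all 8 arrays. Between 21652 and 22077 of 23473 gene probes did so per array, the median gene spot was 1.57 to 1.72 times as bright as the average blank, and the log2 signals of the 2 arrays of a group correlated at 0.995 to 0.998 over probes. Signals below are normalized, on a linear scale on which each array has a median of 25, and carry an offset that draws dim probes together. Fold changes are log2 values from limma over 20473 probes, and "called" means an adjusted p under 0.05 (Benjamini-Hochberg over all of them). Control replicate 1 of 4 h and control replicate 1 of 24 h had gain slopes in their scanner files that differed from those of the 6 other arrays (a separate scan setting), and the part of this setting in the results was examined only by a fit with it as a block and by the values given without these arrays. The culture was checked by markers: the summed signal of 11 neural stem cell markers was 17700 to 20820 over the 8 arrays, a sum carried mostly by Vim and Fabp7, and that of 5 microglia markers, whose median signal was 15.1, was 105 to 117. Of the 11 neural stem cell markers, 1 was called lower with BafA at 4 h (Pax6, -0.48), and at 24 h 3 were called higher (Nes at 2.02, Hes1 and Fabp7) and 4 lower (Gfap at -2.12, Prom1 at -1.12, Sox9 at -0.52 and Vim at -0.38). At 24 h other marker lists moved too. Of 6 astrocyte markers 4 were called lower and 1 higher with BafA, with sums of 5250 to 5944 in BafA-treated and 12510 to 14910 in control qNSCs. Of 7 fibroblast and mural markers 2 were called lower, Acta2 and Col1a1, with sums of 139.6 to 140.6 in BafA-treated and 342.4 to 350.4 in control qNSCs. Of the other lists at 24 h, 3 of 5 neuron markers were called lower and 1 higher. Of 6 oligodendrocyte lineage markers 2 were called lower, and of 2 endothelial markers 1 was called higher. Their part in the results was not tested. In such bulk RNA fewer cells of a type and less RNA per cell cannot be told apart.

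At 4 h, BafA was accompanied by higher Dusp1, Klf6, Myc and Ier2. At 24 h these 4 were still higher, and Klf4, Ier3 and Klf10 were higher as well, while Ier5 was lower. Klf2 and Zfp36 passed at neither time. In counts, 4 of 10 genes were called higher and 0 lower at 4 h in limma (also 4 and 0 at an unadjusted p under 0.05), where 1.13% of all probes tested were called higher and 1.09% lower. At 24 h, 7 of 10 were called higher and 1 lower, where 14.6% of all probes were called higher and 12.8% lower. The median log2 fold change of the 10 genes was 0.27 at 4 h and 0.72 at 24 h, beside 0.01 and 0.02 over all probes. The 10 genes were picked with earlier results of these arrays known, so these shares describe the list and are no independent evidence of its direction. With the signal around each spot taken as background, which followed the spot signal itself over probes (Spearman 0.958 to 0.974), 0 of the 10 passed at 4 h and only Dusp1 passed at 24 h. The log2 fold changes kept their direction for the called genes, but that of Dusp1 at 4 h was 1.69 and that of Ier3 at 24 h was 0.61 in this setting, against 2.63 and 2.27 as reported here.

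**Figure D1:**
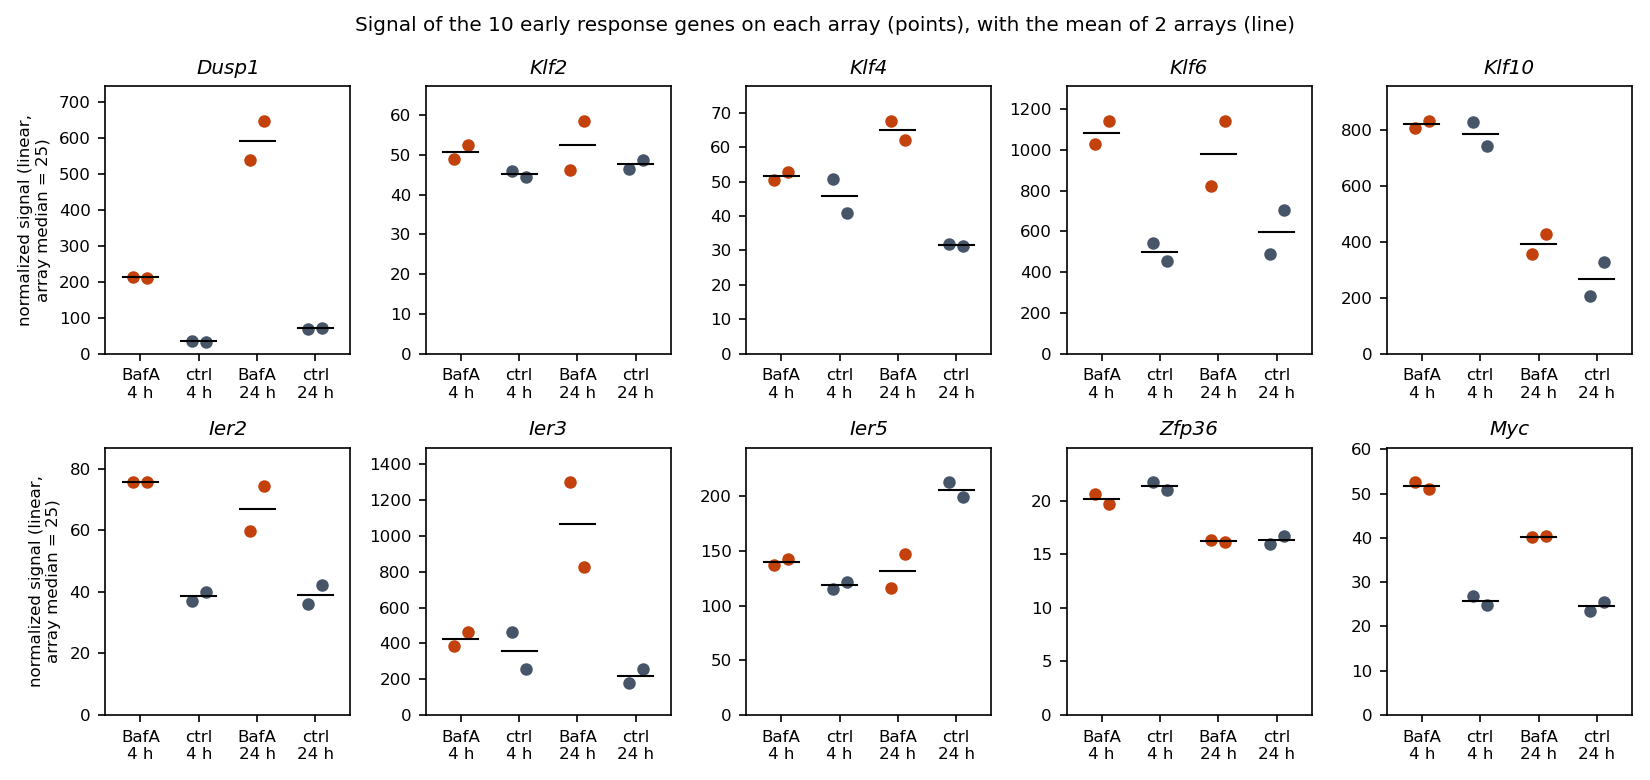
Normalized signal (linear, array median 25) of each gene on each of the 8 arrays, with BafA in orange and control in grey at 4 h and 24 h. Points are arrays and lines are the mean of 2 arrays. The Dusp1 points with BafA lie between 210.6 and 647, all above the controls at 32.6 to 70.3, whereas Zfp36 lies between 15.9 and 21.7 on all arrays.

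The genes were sorted by when they passed. Sustained means called higher at 4 h and at 24 h, and this held for Dusp1, Klf6, Ier2 and Myc, where 0.777% of all probes were sustained. Transient means called higher at 4 h and not at 24 h, with the effect at 24 h called smaller than at 4 h. No gene of the 10 was transient, and 0.137% of all probes (28 of 20473) were. The earliest arrays were at 4 h, so a pulse that was over by then could not be seen. Nor can 2 times tell a level held throughout from one that fell and rose again. Late means called higher at 24 h only, with the difference of the effects called above 0, and this held for Klf4 and Ier3, where 6.53% of all probes were late. Late and lower, the mirror class, held Ier5 and 6.72% of all probes. Klf10 was called at 24 h without a called difference of the effects and stays unsorted. The difference of the BafA effects, 24 h minus 4 h, was called above 0 for 2 of the 10 genes and below 0 for 1, where 7.38% of all probes were called above and 7.3% below.

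**Figure D2:**
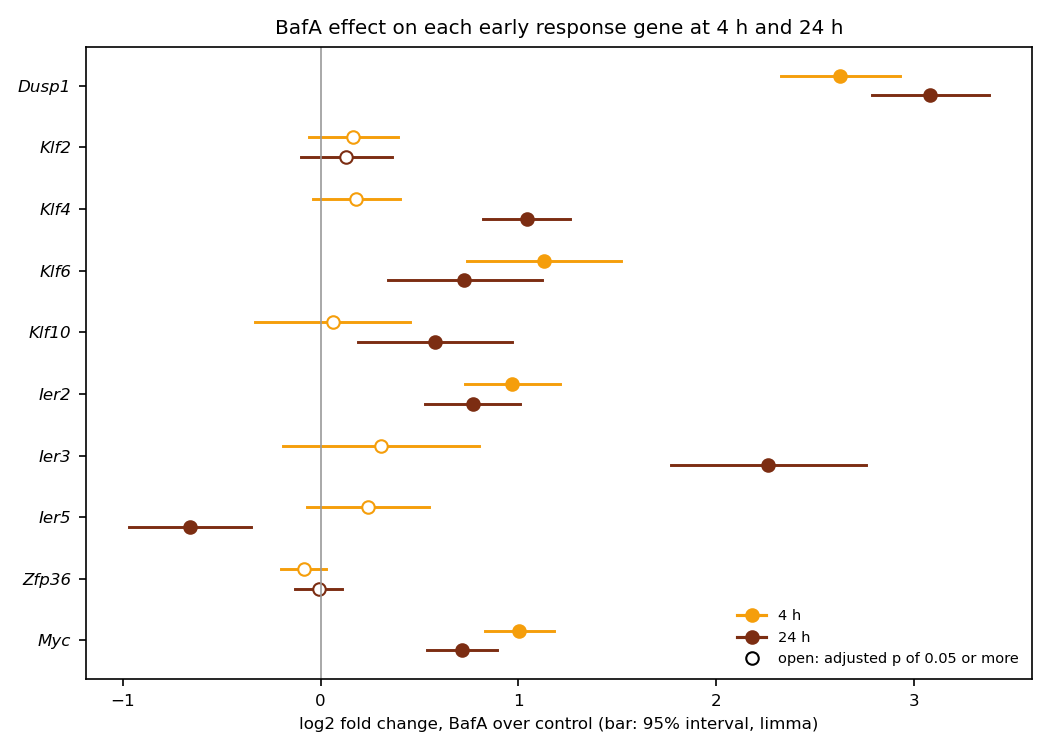
Log2 fold change of BafA over control for each gene at 4 h (yellow) and 24 h (brown) with the 95% interval from limma, open where the adjusted p was 0.05 or more. Dusp1, Klf6, Ier2 and Myc are filled at both times, Klf4, Klf10 and Ier3 only at 24 h, and Ier5 lies at -0.66 at 24 h.

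Dusp1, the MAP kinase phosphatase, had the largest response of the 10 at either time. Its signal at 4 h was 213 and 210.6 in BafA-treated qNSCs, against 36.0 and 32.6 in control qNSCs. Dusp1 at 24 h read 537.1 and 647 with BafA, against 68.9 and 70.3 in control qNSCs. BafA arrays lay above control arrays at each time without overlap, and the 24 h arrays of each treatment lay above its 4 h arrays. For Dusp1, the log2 fold change of 4 h was 2.63 (SE 0.14, limma, adjusted p = 1.46e-11) and that of 24 h was 3.08 (SE 0.14, adjusted p = 3.24e-14), or 6.18-fold and 8.47-fold. At 4 h it ranked 2 among the 20473 probes by fold change, and at 24 h it ranked 11. The ratio of group means of the deposited values, which carry no offset, was 9.39 at 4 h and 10.3 at 24 h. The difference between the effects was 0.46 (95% interval 0.03 to 0.88), and it did not pass after adjustment (adjusted p = 0.161).

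Klf6, a zinc finger factor that restrains growth in several tissues, was sustained in the fit as reported, with a 24 h call that single arrays decided. At 4 h its signal was 1030 and 1141 with BafA, against 540.9 and 453 in control qNSCs. Klf6 at 24 h read 820.8 and 1143 with BafA, against 487.5 and 703 in control qNSCs. The groups did not overlap at either time, but the 24 h arrays of each group spread widely. For Klf6, the log2 fold change of 4 h was 1.13 (SE 0.19, adjusted p = 6.86e-04) and that of 24 h was 0.73 (SE 0.19, adjusted p = 0.00441), and the difference of the effects was -0.40 (95% interval -0.95 to 0.15, adjusted p = 0.406). The 24 h call, and with it the place of Klf6 among the sustained genes, rests on single arrays. It was 0.46 without control 24h replicate 1 and 0.49 without BafA 24h replicate 2, and passed in neither case. The 4 h call did not pass with eBayes without a trend.

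Klf4, a factor known from reprogramming to pluripotency and for holding back division in several epithelia, showed a late response. Its signal at 4 h was 50.4 and 52.8 with BafA, against 50.9 and 40.9 in control qNSCs, and the groups overlapped. Klf4 at 24 h read 67.6 and 62.2 with BafA, against 31.8 and 31.1 in control qNSCs, with no overlap. For Klf4, the log2 fold change of 4 h was 0.18 (95% interval -0.04 to 0.40, adjusted p = 0.697) and that of 24 h was 1.04 (SE 0.11, adjusted p = 3.98e-08). The effects differed by 0.87 (SE 0.15, adjusted p = 2.03e-04). The larger part of the difference lay in the controls. Control qNSCs were lower in Klf4 at 24 h than at 4 h, with a log2 fold change of -0.54 (adjusted p = 3.69e-04). BafA-treated cells were higher by 0.33 (adjusted p = 0.0164), but by 0.29 with quantile normalization, which did not pass. The BafA change was 0.30 without BafA 4h replicate 1 and 0.27 without BafA 24h replicate 1, and passed in neither case.

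Klf10, also known as TGF-beta inducible early gene, was the Klf gene that differed most between 24 h and 4 h within each treatment. At 4 h the signal was 807 and 831.4 with BafA, against 829.2 and 741.4 in control qNSCs, with overlap. Klf10 at 24 h read 355 and 425.4 with BafA, against 206.6 and 326.4 in control qNSCs, without overlap. Both treatments were lower at 24 h than at 4 h, with log2 fold changes of -1.08 in BafA-treated (adjusted p = 5.56e-05) and -1.59 in control qNSCs (adjusted p = 3.91e-07). For Klf10, the log2 fold change of 4 h was 0.06 (adjusted p = 0.993) and that of 24 h was 0.58 (SE 0.19, adjusted p = 0.0215), a difference of 0.52 (95% interval -0.03 to 1.07, adjusted p = 0.239). The difference was 0.85 and passed without control 24h replicate 2. The 24 h effect was 0.25 without control 24h replicate 1 and 0.45 without BafA 24h replicate 2, and passed in neither case, nor with quantile normalization (0.47) or with the scan setting as a block (0.46).

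Klf2, a factor best known in endothelial cells under flow and in resting lymphocytes, passed in no comparison. Its signal was 48.9 and 52.6 with BafA at 4 h, against 46.0 and 44.5 in control qNSCs. Klf2 at 24 h read 46.4 and 58.6 with BafA, against 46.6 and 48.8 in control qNSCs. The groups overlapped at 24 h, and at 4 h the BafA arrays were slightly above the control arrays. For Klf2, the log2 fold change of 4 h was 0.17 (95% interval -0.06 to 0.39, adjusted p = 0.76) and that of 24 h was 0.13 (95% interval -0.10 to 0.36, adjusted p = 0.467).

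The 3 Ier genes, named as immediate early response genes, took 3 different courses. Ier2, which encodes a small nuclear protein, had a signal of 75.5 and 75.5 with BafA at 4 h, against 37.1 and 40.1 in control qNSCs. Ier2 at 24 h read 59.8 and 74.2 with BafA, against 36.1 and 42.2 in control qNSCs. The BafA arrays were above the control arrays at both times. For Ier2, the log2 fold change of 4 h was 0.97 (SE 0.12, adjusted p = 1.09e-05) and that of 24 h was 0.77 (SE 0.12, adjusted p = 1.17e-05), and the difference of the effects was -0.20 (95% interval -0.54 to 0.14, adjusted p = 0.556).

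Ier3, which encodes a regulator of cell death and survival, had a response at 24 h that only Dusp1 exceeded among the 10. At 4 h its signal was 387.5 and 466 with BafA, against 464.2 and 255.3 in control qNSCs, and the groups overlapped. Ier3 at 24 h read 1300 and 829.6 with BafA, against 179.8 and 259.6 in control qNSCs, without overlap. For Ier3, the log2 fold change of 4 h was 0.30 (95% interval -0.19 to 0.80, adjusted p = 0.846) and that of 24 h was 2.27 (SE 0.24, adjusted p = 5.48e-08), and the effects differed by 1.96 (SE 0.34, adjusted p = 1.57e-04). With the signal around each spot as background, the 24 h value was 0.61 and the difference 0.33, and neither passed. The SE of Ier3 was the largest of the 10, with SDs of the signal of 55.6 in BafA-treated and 147.7 in control qNSCs at 4 h, and of 332.5 in BafA-treated and 56.4 in control qNSCs at 24 h. Control qNSCs were lower at 24 h than at 4 h, with a log2 fold change of -0.67 (adjusted p = 0.0317), but this was -0.24 without control 4h replicate 1, -0.41 without control 24h replicate 1 and 0.02 on the 6 arrays of 1 scan setting, and passed in none of these. In BafA-treated cells it was higher by 1.29 (adjusted p = 1.09e-04).

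Ier5, which encodes a protein that acts with heat shock factor in stressed cells, was the only gene of the 10 called lower with BafA at either time. At 4 h its signal was 137 and 142.5 with BafA, against 115.6 and 121.4 in control qNSCs. Ier5 at 24 h read 115.9 and 146.9 with BafA, against 212.8 and 199.7 in control qNSCs. The BafA arrays lay above the control arrays at 4 h and below them at 24 h. For Ier5, the log2 fold change of 4 h was 0.24 (95% interval -0.07 to 0.55, adjusted p = 0.715) and that of 24 h was -0.66 (SE 0.15, adjusted p = 0.00143), and the effects differed by -0.90 (SE 0.21, adjusted p = 0.00408). Between the times Ier5 was higher in control qNSCs by 0.80 (adjusted p = 1.80e-04), and in BafA-treated cells the difference was -0.10 (95% interval -0.41 to 0.21, adjusted p = 0.687).

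Zfp36, the mRNA decay factor, gave a dim probe whose deposited values lay between 6.4 and 18.3, below the array median of 25. Its signal was 20.6 and 19.6 with BafA at 4 h, against 21.7 and 21.0 in control qNSCs. Zfp36 at 24 h read 16.3 and 16.1 with BafA, against 15.9 and 16.7 in control qNSCs. The BafA arrays lay just below the control arrays at 4 h and among them at 24 h. For Zfp36, the log2 fold change of 4 h was -0.09 (95% interval -0.20 to 0.03, adjusted p = 0.763) and that of 24 h was -0.01 (95% interval -0.13 to 0.11, adjusted p = 0.948). Both treatments were lower at 24 h than at 4 h, by a log2 fold change of -0.31 with BafA (adjusted p = 9.34e-05) and -0.39 in control qNSCs (adjusted p = 8.43e-06). On the deposited values, without the offset, the 24 h means were 2.17-fold lower with BafA and 2.37-fold lower in control qNSCs than the 4 h means.

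Myc, the growth factor-responsive transcription factor, was sustained. Its signal was 52.5 and 51.0 with BafA at 4 h, against 26.9 and 24.8 in control qNSCs. Myc at 24 h read 40.2 and 40.4 with BafA, against 23.5 and 25.6 in control qNSCs. The BafA arrays were above the control arrays at both times, and the 24 h BafA arrays were below the 4 h BafA arrays. For Myc, the log2 fold change of 4 h was 1.01 (SE 0.08, adjusted p = 2.51e-08) and that of 24 h was 0.71 (SE 0.08, adjusted p = 3.08e-07). On the deposited values the ratios of means were 3.04 and 2.34. The difference of the effects was -0.29 (95% interval -0.53 to -0.05), which did not pass (adjusted p = 0.113). Without control 24h replicate 1 it was -0.35 and passed. BafA-treated cells were lower in Myc at 24 h than at 4 h, by a log2 fold change of -0.36 (adjusted p = 0.00117), and control qNSCs showed -0.07 (95% interval -0.24 to 0.10).

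**Figure D3:**
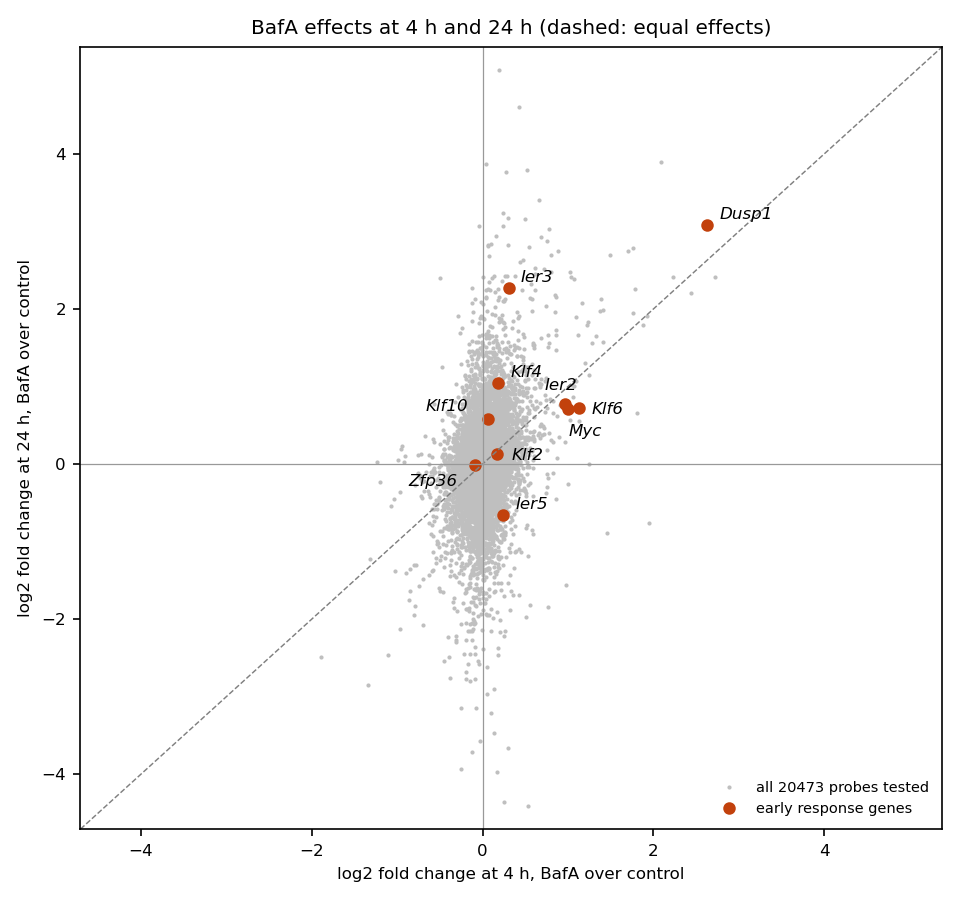
Log2 fold change of BafA over control at 24 h (vertical) against that at 4 h (horizontal) for all probes tested (grey) and the 10 genes (orange). The dashed line marks equal effects. Dusp1 lies far out along it at 2.63 and 3.08, Ier3 and Klf4 lie above it at 4 h effects of 0.30 and 0.18, and Klf6, Ier2 and Myc lie near it at 4 h effects of 0.97 to 1.13.

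The genes also changed with time in the medium, and the BafA comparisons share those controls. In control qNSCs, 2 of the 10 were called higher at 24 h than at 4 h (Dusp1, 1.02, and Ier5, 0.80) and 4 lower (Klf10, Ier3, Klf4 and Zfp36), where 18.8% of all probes were called higher and 14.2% lower. In BafA-treated cells, 3 were called higher at 24 h (Dusp1, 1.48, Ier3, 1.29, and Klf4, 0.33) and 3 lower (Klf10, Myc and Zfp36), where 21.4% of all probes were called higher and 15.9% lower. Dusp1 was higher at 24 h in both treatments, with adjusted p = 1.11e-08 in BafA-treated and 5.30e-06 in control qNSCs.

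**Figure D4:**
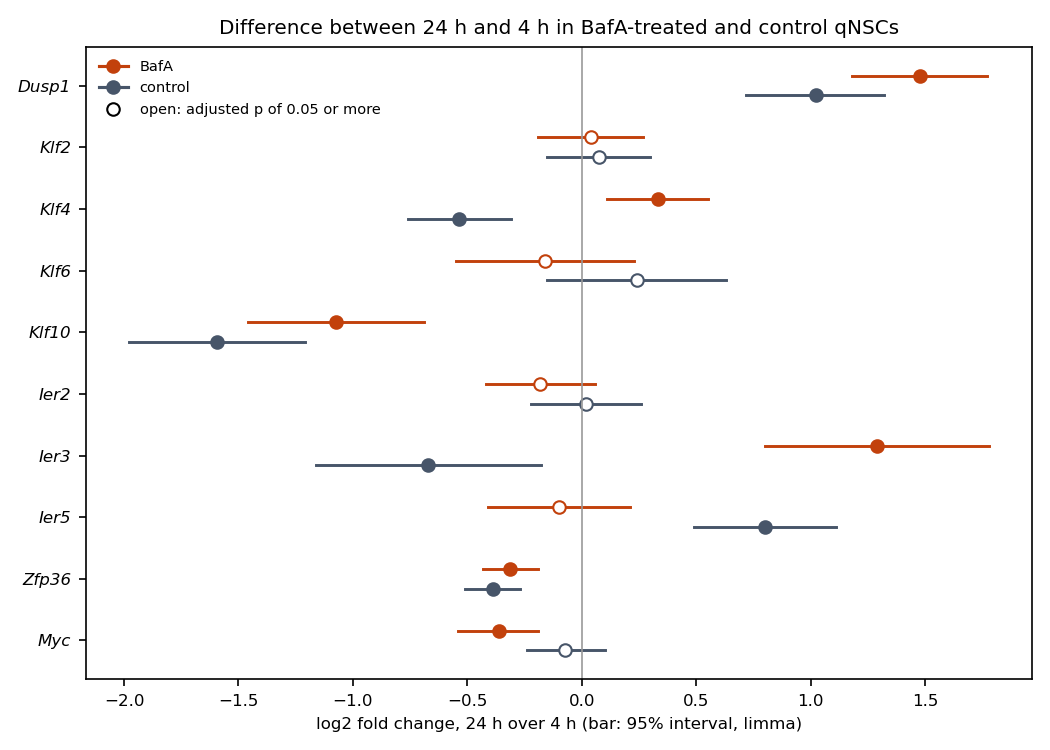
Log2 fold change of 24 h over 4 h for each gene in BafA-treated (orange) and control (grey) qNSCs, with the 95% interval from limma, open where the adjusted p was 0.05 or more. Dusp1 lies to the right in both treatments, Klf10 and Zfp36 to the left in both, and Ier3 and Klf4 lie on opposite sides.

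Related genes were read from 11 lists chosen by family and pathway, each described by its count and median beside the background above. Of 8 other MAP kinase phosphatases tested, 2 were called higher at 4 h and 6 at 24 h, with medians of 0.17 and 0.66, and 0 were lower at either time, also at an unadjusted p under 0.05 in limma. Dusp6, which inactivates ERK, had log2 fold changes of 2.09 at 4 h and 3.89 at 24 h, and Dusp2, a nuclear phosphatase, 0.60 and 0.72. Dusp7 and Dusp10 passed at 24 h only, at 0.73 and 0.71. The probes of Dusp2 and Dusp10 were dim, with mean signals of 18.6 and 21.4. Of 9 MAP kinases tested, 0 were called at 4 h in limma (1 higher at an unadjusted p under 0.05) and Mapk12 alone was called higher at 24 h (0.40), with medians of 0.07 and 0.18.

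Of 11 Klf family genes besides the members, 1 was called higher at 4 h and 4 at 24 h, with medians of 0.07 and 0.14. Klf9 was sustained (0.47 and 0.61), and Klf3, Klf5 and Klf7 passed at 24 h with 0.86, 0.59 and 0.35. Of the Ier and Zfp36 relatives only 3 could be tested, Zfp36l1, Zfp36l2 and Zfp36l3, and none of them was an Ier relative. Zfp36l1, an mRNA decay factor related to Zfp36, was called lower at 4 h (-0.85) and at 24 h (-1.63). The medians of the 3 were 0.01 at both times. Of 11 genes of the Myc network besides Myc, 1 was called higher at 4 h, and 3 higher and 2 lower at 24 h, with medians of -0.02 and 0.00. Mnt, a repressor that pairs with Max, was sustained (0.65 and 0.38), and Mxd1 and Mxi1 were higher at 24 h (0.50 and 0.45). Mycn was lower at 24 h (-0.49). The probes of Mxd1 and Mycn were dim, with mean signals of 19.5 and 16.7.

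Genes that Myc or the decay factors act on were read the same way. Of 25 Myc target genes tested, 2 were called higher at 4 h and 10 at 24 h, with medians of 0.09 and 0.38. Ccnd2, a D cyclin, had log2 fold changes of 0.84 at 4 h and 2.18 at 24 h, Tfrc, the transferrin receptor, 0.57 and 2.12, and both passed at each time. Srm and Nme1 passed at 24 h only, at 1.64 and 1.13. Of 6 AU-rich mRNAs known as Zfp36 targets that could be tested, Lif passed at 4 h (0.33) and Cxcl1 at 24 h (0.22), with list medians of 0.09 and 0.08. Both probes were dim, with mean signals of 17.9 for Lif and 14.5 for Cxcl1. Of 12 mRNA deadenylation and decay factors, 0 passed at 4 h in limma (1 was lower at an unadjusted p under 0.05) and Pan2 was lower at 24 h (-0.34), with medians of 0.03 and 0.13.

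Of 44 other early response genes tested, 18 were called higher and 2 lower at 4 h, and 25 higher and 4 lower at 24 h, with medians of 0.16 and 0.38. Of these 44, 14 were sustained, 7 late and 1 transient, where 0.777%, 6.53% and 0.137% of all probes were. The transient gene was Per1, a clock gene (0.33 at 4 h and -0.04 at 24 h), and Nr4a1, a nuclear receptor, was higher at 4 h and lower at 24 h (1.94 and -0.76). These 2 were named after their values were seen, as were the sustained genes named next by the difference of their effects. Sustained did not require equal effects. The difference, 24 h minus 4 h, was called below 0 for Fosl1 (1.81 at 4 h and 0.66 at 24 h), Csrnp1 and Mafk. It was called above 0 for Maff, Hbegf, Plk2 and Sgk1. The genes of this list with the largest changes were Rgs2, a brake on G-protein signalling, lower at both times (-1.35 and -2.85), Ptgs2, a prostaglandin synthase, late (0.06 and 2.82), and the kinase gene Sgk1 (1.77 and 2.79) and Maff (1.37 and 1.97), both sustained.

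Of 10 BMP and TGF-beta target genes tested, 1 was called higher at 4 h, and 5 higher and 2 lower at 24 h, with medians of -0.02 and 0.26. Tgif1 was sustained (0.52 and 1.18), Bambi and Id1 were higher at 24 h (0.96 and 0.92), and Id4 was lower at 24 h (-0.93). Of 8 heat shock and integrated stress response genes tested, 1 was called higher at 4 h, and 6 higher and 2 lower at 24 h, with medians of 0.23 and 0.87. Hspb1, a small heat shock protein gene, was lower at 24 h (-4.41), and Chac1, Trib3 and Ddit3, which answer to the integrated stress response, were higher (3.87, 1.88 and 1.29).

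**Figure D5:**
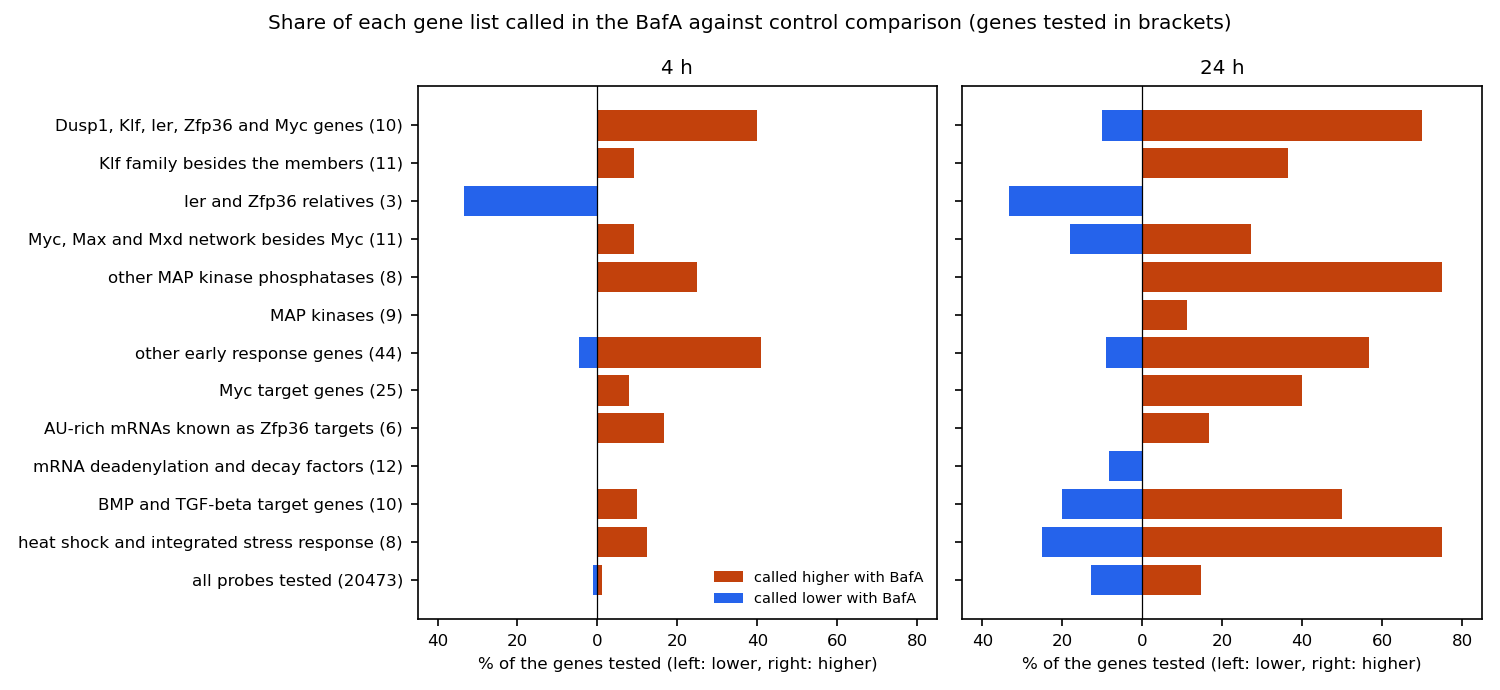
Share of each gene list called higher (right, orange) or lower (left, blue) with BafA at 4 h and 24 h, with the number of genes tested in brackets and all probes in the bottom row. At 24 h the orange bars of the 10 genes, the other MAP kinase phosphatases and the other early response genes, among others, extend far beyond the 14.6% of all probes.

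For the 9 members called in any comparison, the named genes with the most similar course over the 8 arrays were found by Pearson r of the log2 signal. The 8 points share 4 groups of 2, so that any gene that follows the groups scores high, and r is a description. Dusp1 was closest to Msmo1, Adamts1 and Mvd (r = 0.992, 0.990 and 0.987), of which Msmo1 and Mvd are sterol synthesis genes. Klf4 was closest to Hmga1, Akap12 and Tbc1d1 (r = 0.996, 0.987 and 0.981), and Ier3 to Mdm2, Hs3st3a1 and C2cd2l (r = 0.968, 0.965 and 0.965). The genes nearest to Myc were Cdt1, Csrnp1 and Jun (r = 0.981, 0.976 and 0.963), of which Csrnp1 and Jun are early response genes of the list above. Klf6 lay nearest to Hmox1 (0.989), then Slc35f5 and Epha2 (0.977 and 0.961), and Ier2 to Epha2, Nrbp1 and Orc6 (0.981, 0.974 and 0.973). Klf10 lay nearest to Prkaa1, Ddx19b and Zbtb7a (0.999, 0.993 and 0.990), Ier5 to 1810037I17Rik, St6gal1 and Cbr1 (0.986, 0.978 and 0.978), and Zfp36 to Cldn1, Cdk12 and Ralgps1 (0.992, 0.991 and 0.989).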

How the data were processed

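Total RNA of qNSCs was amplified, labelled with Cy5 and hybridised to Toray 3D-Gene single-colour arrays, 2 per group. The value table the authors deposited holds a signal per probe: each spot minus the trimmed mean of the blank spots (5% trimmed), scaled to an array median of 25, with no value at or below that mean plus 2 SD. This rule returned the deposited signal to within 0.052. The scanner files the authors deposited hold the median intensity of each spot and of its surroundings.

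Spot intensities were corrected with normexp (offset 50) and scaled on each array to a median of 25. All 8 arrays entered 1 fit in limma 3.58.1 (lmFit, eBayes with trend, R 4.3.3) with 1 coefficient per group, over the 20473 probes with a deposited value on all arrays, with Benjamini-Hochberg adjustment over all of them. The fit had 4 residual and 19.3 prior degrees of freedom. With 2 arrays in each group, the smallest p of an exact permutation test is 0.33. Platform symbols were updated through RefSeq (3947 symbols). Of the gene probes, 16631 had 1 symbol and 6842 had none. The fit and the motif search were tested on simulated data.

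The 10 members, the gene lists and the tests were chosen with earlier results of these data known. All members are given. Of each list up to 4 called genes are named, those with the largest absolute fold change. Further genes of the other early response list are named by their class or difference of effects. For each member called in any comparison, the 3 genes with the highest r are given. The number of arrays limits the precision. The alternatives were quantile normalization, the deposited values as log2(value + 1), an offset of 16, the surroundings as background, probes over a mean signal of 50, eBayes without trend, the scan setting, a replicate block, leaving out each array, and the methods' t-test.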

Additional observations from a re-analysis of the deposited data

Results flagged for a closer look

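The BafA effect differed between 24 h and 4 h for 3 of the 10 genes, by the test of the difference itself in limma. The effect of BafA on Ier3 was larger at 24 h by 1.96 on the log2 scale (adjusted p = 1.57e-04), with both BafA arrays above both control arrays at 24 h and overlap at 4 h. For Klf4 it was larger by 0.87 (adjusted p = 2.03e-04). Between 4 h and 24 h Klf4 changed more in control qNSCs (-0.54) than in BafA-treated cells (0.33). For Ier5 the difference was -0.90 (adjusted p = 0.00408), with effects of -0.66 at 24 h and 0.24 at 4 h, where only the 24 h effect passed. With the signal around each spot as background none of the 3 differences passed. That of Ier3 was then 0.33, that of Klf4 0.99 and that of Ier5 -1.72.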

How the results depend on the processing

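No member was transient under any of the 17 alternatives that gave classes, and the sustained, late and late lower classes of Dusp1, Ier2, Myc, Klf4, Ier3 and Ier5 held under all of them except the surroundings as background (Klf4 and Myc had no class with bright probes only). Klf6 kept its class under 12 and Klf10 under 9 of 17. Of the 50 values of the 10 genes in 5 comparisons, 50 kept their call with an offset of 16 and 49 with the deposited values. The count was 49 with a block for the scan setting, 47 with quantile normalization and 47 with eBayes without a trend. Keeping a call means staying on the same side of the threshold, and direction was compared only where a value was called. Values that were not called could change sign. With quantile normalization the control 24 h against 4 h change of Klf6 went from 0.242 to -0.043. On the 6 arrays of 1 scan setting 46 values kept their call, and the control 24 h against 4 h change of Ier3 reversed to 0.024.

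With the signal around each spot as background, 0 members and 0 probes were called at 4 h, 1 member and 187 probes at 24 h, 0 and 4 for the difference of the effects, 0 and 8 between the control times, and 0 and 242 between the BafA times, and 0 members were sustained. The cause was not tested. Keeping only the 7243 probes with a mean signal over 50, which drops Klf4, Klf2, Zfp36 and Myc and tests fewer probes, gave 191 probes at 4 h, 2950 at 24 h, 1612 for the difference, 3540 between control times and 4160 between BafA times, where 3 members were called. Without a trend, 132 probes were called at 4 h, against 456 in the fit as reported. The methods' t-test on the deposited values called 2309 probes at 4 h at an unadjusted p under 0.05. It was run without the fold-change cut-off by which the paper chose affected genes, and called 5 members at 4 h and 6 at 24 h. After Benjamini-Hochberg it called 0 members and 26 probes at 4 h, 0 and 19 at 24 h, 0 and 20 between control times, and 1 and 2111 between BafA times.

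Leaving out each array in turn gave 4 members at 4 h throughout, 6 to 8 at 24 h, 3 to 4 for the difference, 3 to 4 sustained, and 229 to 883 probes at 4 h. The lowest of these came without control 4h replicate 1 (229), and 237 probes were left without BafA 4h replicate 2, 283 without control 4h replicate 2, 873 without control 24h replicate 1 and 883 without control 24h replicate 2. The fewest members at 24 h came without control 24h replicate 1 and without BafA 24h replicate 2. Whether replicate numbers pair the samples was not settled. Deviations of same-numbered arrays correlated between -0.22 and 0.32 over the pairs of groups, at 0.285 between the control groups and 0.316 between the BafA groups. In both control groups replicate 1 had the separate scan setting, so there pairing and scan setting cannot be told apart. With a replicate block 4 members were called at 4 h, 8 at 24 h and 3 for the difference, and 50 of 50 values kept their call. Each member had 1 probe, so another choice of probe could not be run. The 2 arrays per group limit every comparison.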
